A study of Mus musculus with 6 samples.

Results

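In all, 9 transcription regulators of epidermal fate were followed in mouse basal cell carcinoma (BCC): Trp63, Tfap2a, Tfap2c, Grhl1, Grhl2, Grhl3, Ovol1, Zfp750 and Hopx. They were taken by gene symbol from a table of 23337 genes. All 9 were in the table and all 9 passed the filter on low values, with at least 248 reads in any library. The tumours grew in ear epidermis and were driven by SmoM2, a constitutively active Smoothened that switches on Hedgehog signalling, expressed from the R26 locus on 1 allele (R26-SmoM2/+). Both groups carried this allele and K14CreER, a Cre recombinase under a keratin 14 promoter that tamoxifen activates, so recombination was directed to basal keratinocytes and their descendants. The wild-type group had 3 libraries of R26-SmoM2/+ K14CreER tumours and the knockout group 3 libraries of R26-SmoM2/+ Yapfl/fl K14CreER tumours. Tamoxifen was given at 4 weeks of age and the cells of these samples were taken 6 weeks later.

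p63, the product of Trp63, is the factor that establishes and maintains stratified epithelium, and it is highest in the basal layer. The AP-2 factors TFAP2A and TFAP2C act beside it in keratinocyte commitment and differentiation. Grainyhead-like factors bind genes of epithelial junctions and of the skin barrier, OVOL1 and ZNF750 (Zfp750 in mouse) promote exit from the progenitor state and terminal differentiation, and HOPX is a homeodomain protein without DNA binding of its own that is found in hair follicle stem cells and in differentiating keratinocytes. Yap1 encodes YAP, a co-activator held back by the Hippo kinases, which reaches DNA through TEAD factors. The comparison asked whether transcripts of these fate regulators differed between tumours with and without an intact Yap gene.

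None of the 9 regulators passed a test of knockout against wild-type tumours fitted across all genes. With limma on log2(normalized count + 1), 0 of 9 passed a Benjamini-Hochberg adjusted p of 0.05, and neither did any other gene (0% of 13671 tested). DESeq2 on the recovered reads called 0.490% of the genes and none of the 9, and edgeR called 0 genes. At an unadjusted p below 0.05 there were 0 of 9 members in each of limma, edgeR and DESeq2, beside 759 genes in limma and 761 in edgeR. Yap1 itself, the deleted gene, did not pass limma (adjusted p 0.517) and passed DESeq2 (adjusted p 1.4e-07). The regulators' values also followed a line that both genotypes shared. Grhl3, Zfp750 and Ovol1 were higher, and Trp63, Tfap2c and Hopx lower, in the third library of each group. Tfap2a and Grhl1 were also highest and Grhl2 lowest there, but these did not pass limma along that line. The third libraries did not overlap the others for 39.2% of all genes tested. The limma calls along that line fell to 0 members in some fits that left out a library.

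The values are read counts divided by a size factor for each library, called normalized counts here. Library depth was 15405490 to 25260431 reads. The targeted gene followed the labels: Yap1 measured 5765, 6004 and 5573 normalized counts in the wild-type tumours, numbered 1 to 3, and 591, 773 and 1764 in the knockout tumours, numbered likewise. Libraries 1 and 2 of each group carry label codes that begin with DM22 and library 3 a code that begins with DM24. Libraries of the same number are called a pair below, and the number is the replicate block. The labels do not state that these libraries were matched. Both DM24 libraries had high Xist (58654 and 59594 normalized counts) and no Ddx3y read, which allows up to 3.79 and 3.90 normalized counts, whereas the 4 DM22 libraries had at most 15.1 of Xist and at least 3202 of Ddx3y. The DM24 libraries were also the shallowest, so sex, depth and whatever the codes mark cannot be told apart. The labels do not say whether separate animals gave the libraries, and the p-values therefore reflect library-to-library spread, which may be technical. In bulk RNA, fewer cells of a type and less RNA per cell cannot be told apart.

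**Figure D1:**
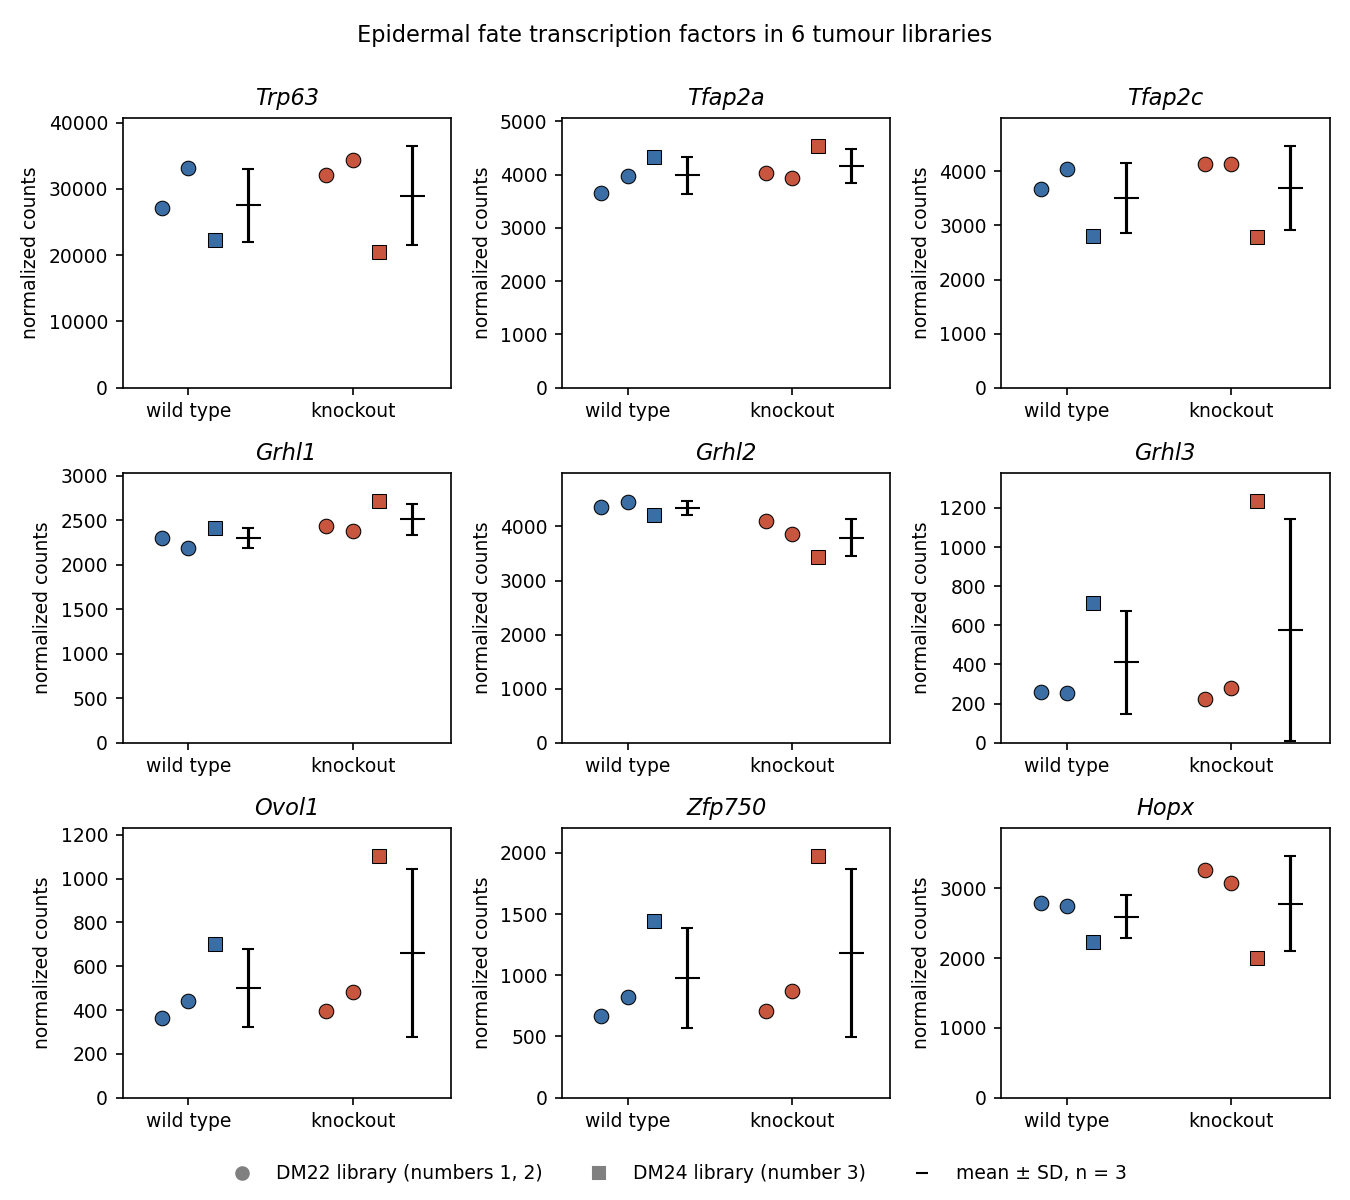
Normalized counts of the 9 regulators in each library, 1 panel a gene, with the wild-type group at the left and the knockout group at the right of each panel. Circles are DM22 libraries, squares are DM24 libraries, and bars give the mean ± SD (n = 3). Grhl3, Ovol1 and Zfp750 have their highest points in the DM24 library of each group, and Trp63, Tfap2c and Hopx their lowest. Tfap2a and Grhl1 also have their highest points there, and Grhl2 its lowest.

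Trp63 (chr16:25683763-25892102, plus strand, GRCm38) was the most abundant of the 9 per kilobase of exon in every library. It measured 27150, 33163 and 22243 normalized counts in the wild-type tumours (libraries 1 to 3) and 32053, 34364 and 20531 in the knockout tumours (libraries 1 to 3). The groups overlapped, and library 3 was the lowest in each. The means were 27519 ± 5469 and 28983 ± 7410 (SD, n = 3 each), a log2 difference (knockout minus wild type) of 0.06 with a 95% interval of −0.53 to 0.64 and a limma adjusted p of 0.999. The table gives 1 value for the gene, so the p63 isoforms with and without the transactivation domain were not separated.

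Tfap2a (chr13:40715302-40738376, minus strand) measured 3649, 3972 and 4336 normalized counts in the wild-type tumours and 4030, 3931 and 4527 in the knockout tumours. Tfap2c (chr2:172549593-172558622, plus strand) had 3682, 4043 and 2800 in wild type and 4130, 4139 and 2794 in knockout. Both genes overlapped between genotypes, but the 2 AP-2 factors were ordered differently in the third libraries. Tfap2a had its highest value there and Tfap2c its lowest, in each genotype. Their log2 differences between genotypes were 0.06 ± 0.09 (SE) for Tfap2a and 0.07 ± 0.21 (SE) for Tfap2c, with limma adjusted p of 0.996 and 0.999. Antisense genes share exon bases with Tfap2a, up to 7.75% with Gm26688, and the library kit does not mark strand. Per kilobase of exon, the log2 ratio of Tfap2a to Tfap2c was −0.43, −0.44 and 0.22 in the wild-type tumours and −0.45, −0.49 and 0.28 in the knockout tumours. Tfap2c was therefore the more abundant of the pair in the DM22 libraries and Tfap2a in the DM24 libraries, whatever the genotype.

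The grainyhead-like factors share a DNA-binding domain and a recognition sequence, and they differed among themselves in how much they varied. Grhl1 (chr12:24572283-24617391, plus strand) was the steadiest, with 2303, 2195 and 2420 normalized counts in the wild-type tumours and 2440, 2387 and 2714 in the knockout tumours. The knockout value was the higher in each same-numbered pair, by 0.08, 0.12 and 0.16 on the log2 scale. The groups still overlapped, and the log2 difference of 0.12 (95% interval −0.07 to 0.31) had a limma adjusted p of 0.966.

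Grhl2 (chr15:37233036-37363569, plus strand), a regulator of epithelial junction genes, was the member with no overlap between the genotypes. It measured 4359, 4453 and 4211 normalized counts in the wild-type tumours and 4093, 3860 and 3433 in the knockout tumours. Every knockout library lay below every wild-type library, with means of 3795 ± 335 against 4341 ± 122 (SD, n = 3 each). The log2 difference was −0.20 with a 95% interval of −0.40 to 0.01 and a limma adjusted p of 0.894, so it did not pass the test. With the code series in the fit the interval was −0.35 to −0.05 and the limma adjusted p 0.347. Non-overlap in either direction held for 1 of 9 members and for 11.0% of the genes tested, and with the knockout lower for 5.87%.

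Grhl3 (chr4:135541888-135573630, minus strand), which is needed for barrier formation and is expressed in differentiating cells, varied the most. It measured 261, 256 and 713 normalized counts in the wild-type tumours and 221, 277 and 1233 in the knockout tumours. Libraries 1 and 2 lay together in both genotypes and library 3 stood above them. Within the pairs the knockout minus wild-type log2 values were −0.24, 0.12 and 0.79, and the log2 difference between the genotypes was 0.22 with a 95% interval of −1.57 to 2.02. Of the summed grainyhead-like level per kilobase, Grhl3 made up 9.23%, 9.12% and 21.6% in wild type and 7.97%, 10.2% and 33.2% in knockout. Grhl2 made up 49.8%, 51.5% and 41.4% in wild type and 47.8%, 45.8% and 30.0% in knockout, so that Grhl3 exceeded Grhl2 in this measure only in knockout library 3.

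Ovol1 (chr19:5549136-5560646, minus strand), a zinc finger repressor, measured 361, 442 and 701 normalized counts in the wild-type tumours and 397, 482 and 1101 in the knockout tumours. Zfp750 (chr11:121510978-121519333, minus strand), which lies within Tbcd on the opposite strand and shares no exon base with it, had 669, 826 and 1440 in wild type and 709, 872 and 1971 in knockout. The 2 genes kept the same order of libraries, with knockout library 3 the highest and wild-type library 3 next. The knockout value was the higher in each of the 3 pairs for both genes, by 0.13, 0.12 and 0.65 for Ovol1 and by 0.08, 0.08 and 0.45 for Zfp750 on the log2 scale. Their log2 differences of 0.30 ± 0.43 and 0.20 ± 0.45 (SE) had limma adjusted p of 0.996 and 0.999. Of the exon bases of Ovol1, 19.8% are shared with the pseudogene Gm31166 on the opposite strand, so part of its reads cannot be assigned with certainty.

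Hopx (chr5:77086988-77115121, minus strand) measured 2788, 2753 and 2238 normalized counts in the wild-type tumours and 3262, 3073 and 2008 in the knockout tumours. The knockout value was the higher in pairs 1 and 2, by 0.23 and 0.16, and the lower in pair 3, at −0.16, on the log2 scale. Over all libraries the log2 difference was 0.08 with a 95% interval of −0.42 to 0.57 and a limma adjusted p of 0.999. Of its exon bases, 27.2% are shared with the antisense gene Hopxos, whose reads could not be told apart from those of Hopx.

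Over the 9 genes, 8 log2 differences lay above 0 and 1 below, with a median of 0.08. Over all genes tested the median was −0.00 and 51.0% lay below 0. The differences of Trp63, Tfap2c, Grhl3, Ovol1, Zfp750 and Hopx changed sign in some fits that left out a library. The sign was the same in all 3 pairs for 4 of 9 members, namely Grhl1, Grhl2, Ovol1 and Zfp750, and for 32.6% of all genes. The intervals bound what these libraries could show. For Grhl1 and Tfap2a they were narrow, and for Grhl3 the interval reached past a log2 difference of 1 in both directions in this fit, which leaves out the code series.

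**Figure D2:**
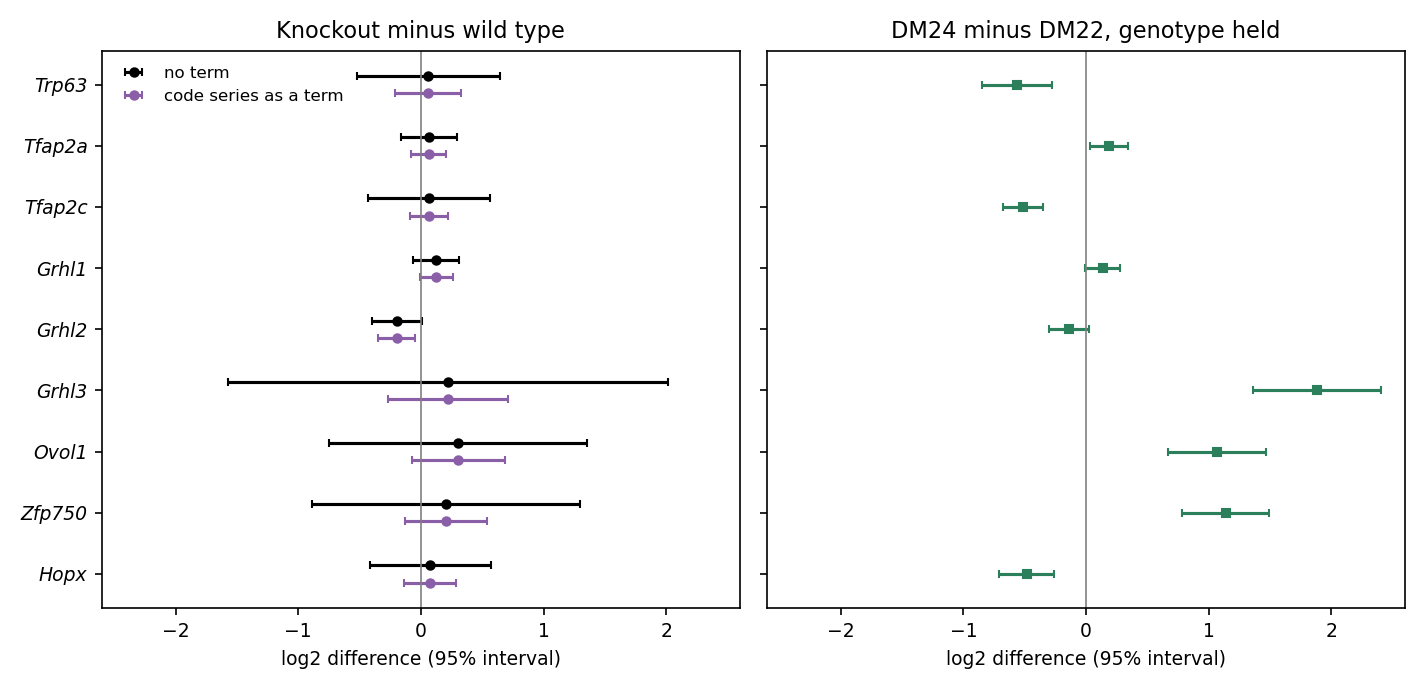
Log2 differences (x axes) of the 9 regulators with 95% intervals from limma, knockout minus wild type at the left (black without and purple with the code series in the fit) and DM24 minus DM22 with genotype held at the right. At the left every black interval crosses 0 and among the purple ones that of Grhl2, from −0.35 to −0.05, does not, while at the right Grhl3, Ovol1 and Zfp750 lie well above 0 and Trp63, Tfap2c and Hopx below.

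When the code series entered the limma fit, the estimates were the same and the interval of each member narrowed. In DESeq2 the estimates moved, from 0.50 to 0.24 for Grhl3, from 0.40 to 0.31 for Ovol1 and from 0.28 to 0.21 for Zfp750. The intervals that follow are those of limma. For Grhl3 the interval became −0.27 to 0.71, for Ovol1 −0.08 to 0.68 and for Zfp750 −0.13 to 0.54. Still no member passed the adjusted threshold in limma, which called 0% of the genes, or in DESeq2, which called 2.17%. In this limma fit Grhl2 was the 1 member with an unadjusted p below 0.05, beside 1546 genes in all. With the replicate number as a block DESeq2 called 1.24% of the genes and limma 0%, and again no member.

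Along the code series, 6 of 9 regulators differed in the fit that held the genotype, where limma called 6.75% of the genes at an adjusted p of 0.05. Of these, 3 were higher in the DM24 libraries (2.68% of genes were called in that direction). Grhl3 was 3.83-fold higher by the means, with a log2 difference of 1.89 ± 0.21 (SE) and an adjusted p of 0.0154 in limma. Zfp750 was 2.22-fold higher (1.14 ± 0.14, limma adjusted p 0.0190) and Ovol1 2.14-fold higher (1.07 ± 0.16, limma adjusted p 0.0275). All 3 are known regulators of late differentiation. Each of the 2 DM24 libraries lay above all 4 DM22 libraries for all 3 genes.

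The other 3 were lower in the DM24 libraries, a direction in which 4.07% of genes were called. Tfap2c had a log2 difference of −0.51 ± 0.07 (SE) and a limma adjusted p of 0.0191. Hopx had −0.48 ± 0.09 (limma adjusted p 0.0401) and Trp63 −0.56 ± 0.12 (limma adjusted p 0.0474). Trp63, the basal identity factor, thus stood in the DM24 libraries at 0.675 of its DM22 mean. Trp63 was not called with edgeR (adjusted p 0.0505, with 6.39% of genes called), nor with limma after quantile normalization, which gave −0.29 with an adjusted p of 0.169. Tfap2a (0.19), Grhl1 (0.14) and Grhl2 (−0.14) did not pass, with limma adjusted p of 0.118, 0.178 and 0.218. The order of the 2 DM24 values did not follow the genotype in 1 direction, since knockout library 3 was above wild-type library 3 for Grhl3, Ovol1 and Zfp750 and below it for Trp63 and Hopx, with Tfap2c at 2794 against 2800.

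**Figure D3:**
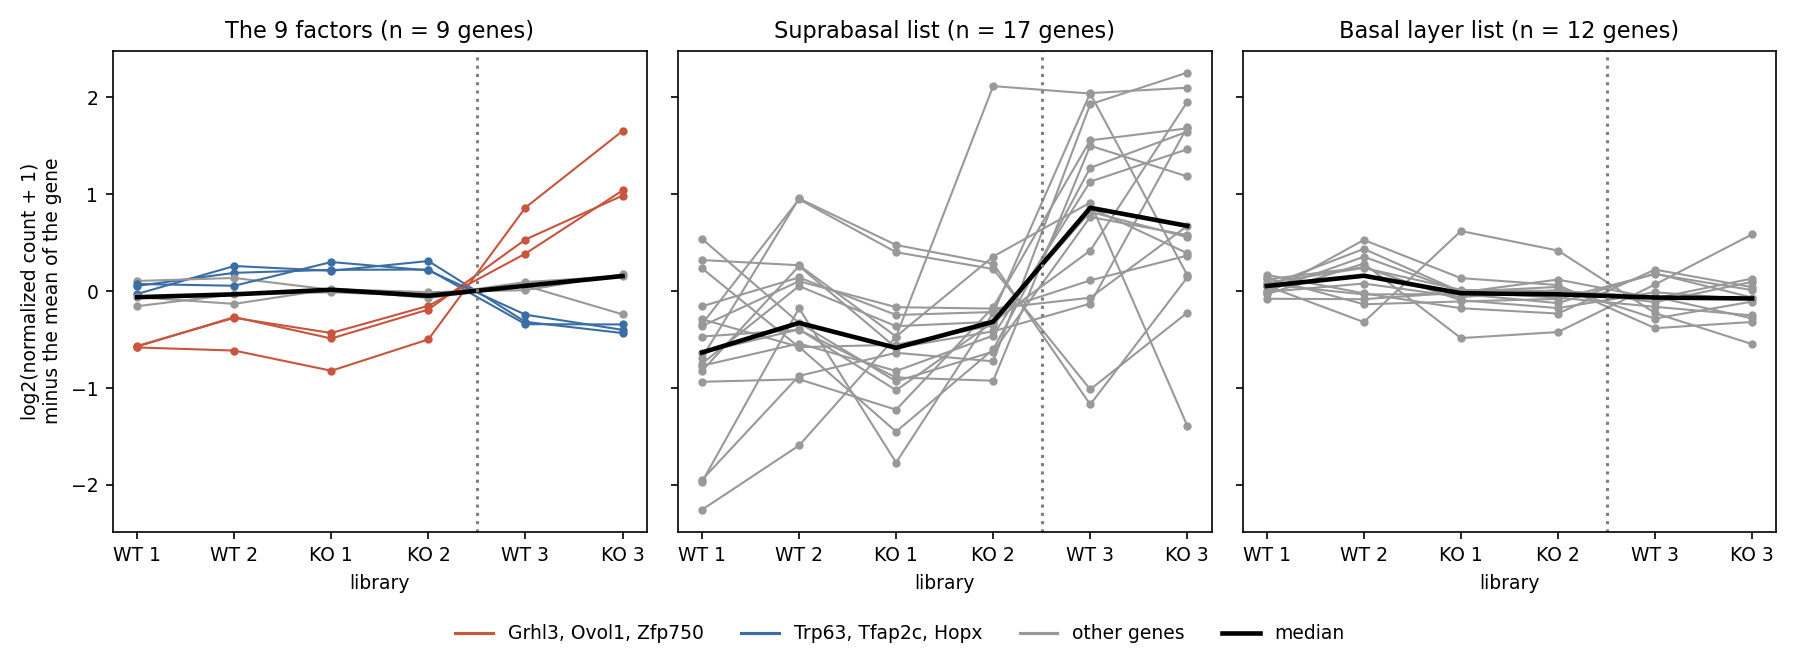
Log2(normalized count + 1) minus the gene's mean over the 6 libraries (y axis) by library (x axis, DM22 left and DM24 right of the dotted line) for the 9 regulators, 17 suprabasal genes and 12 basal layer genes, with 1 line a gene and the list median in black. Grhl3, Ovol1 and Zfp750 (red) lie above 0 in both DM24 libraries and Trp63, Tfap2c and Hopx (blue) below, and the median of the suprabasal list is above 0 there while that of the basal list stays near it.

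These calls rest on 2 DM24 libraries. When wild-type library 3 was left out, 1 member was called. The number was 2 when knockout library 1 was left out, and 0 when either knockout library 2 or knockout library 3 was. The number of genes called over the whole table fell as well, from 923 to 90, 119, 105 and 39 in these 4 fits. The direction of each of the 6 was the same under all 9 alternatives. The series difference exceeded the genotype difference in size for 8 of 9 members and for 66.8% of all genes, and the DM24 values did not overlap the DM22 values for 7 of 9 members and for 39.2% of genes.

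Whether the genotype difference itself changed between the series was tested with an interaction term. No member and no gene passed (0% of 13671 in limma, with 748 at an unadjusted p below 0.05). DM24 held only library 3 of each genotype, so the spread in this fit came from the DM22 libraries alone. The fit therefore cannot show how much DM24 libraries of 1 genotype vary. Grhl3 had the largest interaction of the 9, a log2 value of 0.85. For Hopx the interaction was −0.35. Knockout library 3, in which Grhl3, Ovol1 and Zfp750 were highest, was also the knockout library with the most residual Yap1. The part of that in these values was not tested.

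Levels can be compared between genes only per length. In wild type the order of normalized counts per kilobase of exon was Trp63 (3280), Hopx (1711), Tfap2c (954), Tfap2a (813), Grhl2 (504), Grhl1 (416), Zfp750 (303), Grhl3 (147) and Ovol1 (144). Neighbours whose libraries overlapped were Tfap2c with Tfap2a, Grhl1 with Zfp750, Zfp750 with Grhl3, and Grhl3 with Ovol1. In knockout Grhl1 (454) and Grhl2 (441) changed places, and their libraries overlapped.

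The promoters of 4 members, Tfap2a, Grhl1, Grhl3 and Hopx, were matched in RefSeq windows of GRCm38.p6 that run from 250 bases before to 50 bases after a start site, 7 windows in all. The windows of Grhl3 and Hopx are shown because these 2 genes moved in opposite directions along the code series. Capitals mark matches to the AP-2 motif GCCNNNGGC, searched on both strands, and the Grhl3 window has none.

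Grhl3 promoter, chr4:135573583-135573882, minus strand: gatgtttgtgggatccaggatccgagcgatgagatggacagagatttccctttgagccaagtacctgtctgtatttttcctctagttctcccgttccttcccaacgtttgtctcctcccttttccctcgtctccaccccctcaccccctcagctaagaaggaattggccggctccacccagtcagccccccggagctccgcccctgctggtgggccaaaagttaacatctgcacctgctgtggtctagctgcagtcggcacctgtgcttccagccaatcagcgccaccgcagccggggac

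Hopx promoter at the inner start, chr5:77095218-77095517, minus strand: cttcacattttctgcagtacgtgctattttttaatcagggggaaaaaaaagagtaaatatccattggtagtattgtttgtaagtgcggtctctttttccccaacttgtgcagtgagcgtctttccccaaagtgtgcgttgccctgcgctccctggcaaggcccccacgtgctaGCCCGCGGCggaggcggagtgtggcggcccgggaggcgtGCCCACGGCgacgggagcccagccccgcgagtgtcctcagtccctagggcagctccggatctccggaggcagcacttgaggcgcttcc

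Hopx promoter at the outer start, chr5:77115074-77115373, minus strand: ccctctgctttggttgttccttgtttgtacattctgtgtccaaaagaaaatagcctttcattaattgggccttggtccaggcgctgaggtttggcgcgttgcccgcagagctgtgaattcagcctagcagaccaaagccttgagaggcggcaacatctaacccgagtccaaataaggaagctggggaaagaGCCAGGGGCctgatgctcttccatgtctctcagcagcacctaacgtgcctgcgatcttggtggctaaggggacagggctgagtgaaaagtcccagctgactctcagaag

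The AP-2 motif was found in 16.6% of all 32851 promoter windows. Among the members it occurred 2 times in the inner Hopx window, at −77 and −38 from the start site, 1 time in the outer one, at −59, and 1 time in a Grhl1 window, at −82. The TEAD motif GGAATG (14.7% of windows), the AP-1 motif TGANTCA (7.81%), the grainyhead motif AACCGGTT (0.146%) and the GLI motif GACCACCCA (0.253%) were in none of the 7 windows. A match says only that the letters are there, and a missing match only that they are not in this window.

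Other epidermal transcription factors were read beside the members, from a list of 28 of which 27 were tested. In limma and in DESeq2 without a term none passed between the genotypes, with 17 below 0 and 10 above 0 and a median of −0.05. The 2 largest differences were those of Msx2, a homeobox factor (−0.64 ± 0.67, SE), and Hes1, a Notch effector (−0.61 ± 0.69, SE). Trp73, the p53 family member p73, is named after its values were seen. It measured 4777, 6228 and 4084 normalized counts in the wild-type tumours and 3794, 3743 and 3214 in the knockout tumours, with no overlap. Non-overlap held for 1 of the 27 genes and for 11.0% of all genes tested. Its log2 difference was −0.47 ± 0.16 (SE). Of the list, 2 genes were lower in the DM24 libraries by limma, Msx2 and the chromatin organizer Satb1, and none was higher. For Trp73 between genotypes, the DESeq2 adjusted p was 0.342 without a term, 0.0417 with the replicate block and 0.0194 with the code series.

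Known targets of p63 gave 16 of 22 values below 0 and 6 above, with a median of −0.07 and none past limma. Igfbp3, which p63 represses, had the largest difference (1.02 ± 0.74, SE). The adhesion gene Pvrl1 (Nectin1) measured 1583, 1910 and 2323 normalized counts in the wild-type tumours and 2131, 2824 and 3396 in the knockout tumours, a log2 difference of 0.51 ± 0.21 (SE). It was above its partner in each pair, the groups overlapped, and DESeq2 gave an adjusted p of 0.578 without a term, 0.00069 with the replicate block and 0.0261 with the code series. Targets and partners of the grainyhead-like factors had 7 below 0 and 6 above 0 of 13 tested, with a median of −0.01. The largest there were the protease inhibitor gene Spint1 (0.28 ± 0.13, SE) and the desmosomal gene Dsg1a (0.27 ± 0.49, SE), neither past limma or DESeq2. Along the code series the transglutaminase gene Tgm1 and Rab25 were higher and Tgm5 lower in the DM24 libraries, 3 of 13.

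Genes of the basal layer had 9 of 12 values below 0, with a median of −0.13, and none passed limma or DESeq2 over the 6 libraries. In the DM22 libraries alone, DESeq2 called 265 genes in all, among them 2 of this list. These were the basal keratin genes Krt14, lower in knockout (−0.58 ± 0.14, SE, adjusted p 0.0039), and Krt15, higher (0.65 ± 0.17, SE, adjusted p 0.0096). Both went the other way between the DM24 libraries. Krt14 stood at 187297 in knockout library 3, its highest value, against 130887 in wild-type library 3. Krt15 stood at 20195 in knockout library 3, its lowest value, against 25212 in wild-type library 3. Over the 6 libraries DESeq2 gave −0.13 ± 0.30 (SE) for Krt14 and 0.40 ± 0.29 (SE) for Krt15. The largest differences over the 6 libraries were those of Krt15 (0.33 ± 0.31, SE) and the integrin gene Itga3 (−0.24 ± 0.11, SE). Suprabasal differentiation genes had 10 of 17 above 0, with a median of 0.12, and none passed limma or DESeq2 either. The largest were those of Lce1a1 (1.21 ± 1.29, SE) and Lor (−1.0 ± 0.46, SE), both cornified envelope genes with low counts. Along the code series, 6 of these 17 were higher in the DM24 libraries by limma, namely Tgm1, Dsc1, Hrnr, Klk5, Klk7 and Cnfn, and none was lower. Over all genes tested 2.68% were called higher. Some of the 6 had low counts in the DM22 libraries, at most 3.57 for Hrnr, 23.0 for Klk5 and 31.6 for Cnfn. Cnfn passed narrowly (limma adjusted p 0.0498). Tgm1, the transglutaminase that cross-links the cornified envelope and a known target of Grhl3, measured 81.5, 95.8 and 307 normalized counts in the wild-type tumours and 78.5, 101 and 387 in the knockout tumours, a series log2 difference of 1.94 ± 0.19 (SE) with a limma adjusted p of 0.00998. The suprabasal genes summed to 40143, 55732 and 59824 normalized counts in wild type and to 39517, 44872 and 125417 in knockout. Along the code series 14 of the 17 genes lay above 0 and 3 below, Lor (−0.36) among the latter, with a median of 1.17. Within each genotype the sum, like Grhl3, Ovol1 and Zfp750, was highest in library 3, though in wild type library 2 came near it. Whether cell makeup accounts for this was not tested. No basal layer gene passed along the code series, where the list had a median of −0.04.

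Of 9 mesenchymal genes that OVOL factors are known to repress, 3 passed the filter on low values. Snai2 measured 1566, 1413 and 1397 normalized counts in the wild-type tumours and 1104, 1138 and 1247 in the knockout tumours, with no overlap. It was the 1 gene of the 3 without overlap, beside 11.0% of all genes tested. Its log2 difference of −0.33 ± 0.08 (SE) had an adjusted p of 0.722 in limma and 0.178 in DESeq2. Fn1 had −0.30 ± 0.36 (SE) between the genotypes. Vim, the third, was higher in the DM24 libraries (1.67 ± 0.32, SE, limma adjusted p 0.0397).

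Markers of other cells were checked in the same way. Immune cell markers summed to 92.3 to 426 normalized counts in wild type and 271 to 529 in knockout, with Ms4a7 and Cpa3 at 0 reads in all libraries, which allows up to 3.90 normalized counts in one, and 1 of 11 genes in the table past the filter. Fibroblast markers summed to 3412 to 10402 and 1993 to 7619, with 6 of 8 past the filter, and were lowest in the DM24 libraries. That sum is mostly Dcn, which passed downward along the code series (−2.10 ± 0.29, SE, limma adjusted p 0.0248), while 4 of the 6 tested genes had series differences above 0, with a list median of 0.86. Col3a1 had the largest of these, 5.68 ± 1.40 (SE), and did not pass (limma adjusted p 0.0703). Endothelial markers summed to 41.2 to 103 and 63.3 to 107, with 2 of 6 past the filter and Emcn at 0 reads. Sebocyte markers summed to 13916 to 19331 and 13370 to 25265 and were highest in the DM24 libraries, where 1 of 5 tested genes, Mgst1, passed upward. Melanocyte markers, 4 of 6 past the filter, summed to 572 to 617 and 379 to 735, with 3 series differences above 0, a median of 0.46, and 1 below, that of Mitf, which passed. Schwann cell markers, 3 of 4, summed to 433 to 586 and 483 to 746, and muscle markers, 1 of 5, to 14.3 to 45.4 and 19.0 to 21.5. Keratinocyte markers, 7 of 7 past the filter and Trp63 among them, at 511626 to 704217 and 556096 to 599938, were far above all of these, and the tissue is labelled epidermis. The part of these cell types in the series differences of the 9 regulators was not tested.

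The genes whose pattern over the 6 libraries lay closest to each member were found by the root mean square difference of centred log2 values among 11022 genes with a mean of at least 50. Ovol1 and Zfp750 were among each other's nearest 2, at 0.0691, against a spread of 0.553 and 0.567 for the genes themselves. Malat1, an abundant nuclear RNA, was nearer still to Ovol1 (0.0512), and Notch3 was the other neighbour of Zfp750 (0.0910). Malat1 measured 11917, 13312 and 21121 normalized counts in the wild-type tumours and 12613, 14361 and 34082 in the knockout tumours. The neighbours of Grhl3 were Ly6g6c (0.143) and Sdr16c6 (0.155), beside its own spread of 0.923. Trp63 lay nearest to Pard3b (0.0306) and Khnyn (0.0414), Tfap2c to Wdr6 and Mxd4, and Hopx to Plekho2 and Cttnbp2nl. For the steadier members the nearest were Pcdhb20 and Uxs1 (Tfap2a), Hbs1l and Tmem165 (Grhl1), and Tmem59 and Casp8ap2 (Grhl2).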

How the data were processed

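RNA of 6 BCC libraries was sequenced, 3 from tumours with wild-type Yap and 3 with floxed Yap. The TruSeq RNA kit v2 was used for library preparation, per the labels' protocols, and STAR 2.5 and DESeq2 1.18.1 were used with mm10 (GRCm38), per the submitters' processing notes. The counter, annotation and strand setting are not given in the sources used here. The authors deposited 1 table of signal values, read counts divided by a size factor. Dividing by the value of 1 read gave whole reads for 100% of values (tolerance 0.001), and these reads were used in the count tests. Size factors were 1.19, 1.04 and 0.769 (wild type) and 1.12, 1.21 and 0.791 (knockout), and 5122 genes had no read. Intervals and tests cover these libraries only.

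Genes averaging at least 10 normalized counts (13671) were fitted with limma 3.58.1 (R 4.3.3, log2(normalized count + 1), trend and robust prior, two-sided, Benjamini-Hochberg). This scale understates changes of low genes. Recovered reads were fitted with edgeR 4.0.16 and DESeq2 1.42.0 (own size factors, no independent filtering). Alternatives were other pseudocounts (0.5, 5), filters, quantile normalization, the replicate block, the code series as a term, DM22 libraries alone and each library left out. Those for the code series and the lists, and the DESeq2 fits that leave out a library, were chosen after seeing the data. The scripts were tested on simulated data without a code series effect, which does not show what the fits could detect in these libraries. An exact permutation test of 3 against 3 cannot go below 0.1, so none was run.

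The members, the 6 related lists and the 8 marker lists were chosen with earlier results of these data known. Named were the 9 members, Yap1, of each list the genes past limma or DESeq2 or else the 2 with the largest difference, and the 2 genes nearest to each member. Genes called along the code series or in the DM22 libraries are named beyond that rule after their values were seen. Coordinates are 1-based from GENCODE M21 (GRCm38), and Pvrl1 was matched through a RefSeq synonym. The shared numbers in the labels were taken to pair the libraries of the 2 genotypes. Same-numbered libraries had deviations that correlated by 0.333, 0.327 and 0.694 across genes. Wild-type library 2 and knockout library 1 correlated by 0.505, and wild-type library 1 and knockout library 2 by 0.260. The correlations therefore do not show which DM22 libraries belong together. The labels number the libraries and state no pairing, so pairs 1 and 2 and the replicate block rest on that assumption.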

Additional observations from a re-analysis of the deposited data

How the results depend on the processing

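No regulator was called between the genotypes in any of the 27 alternatives per member. With the replicate block, limma called 0 genes and DESeq2 169, none of them a member, so the pairing changed no call of a member. Across all genes, limma called 0 and DESeq2 67 without a term, DESeq2 297 with the code series, and limma 2 and DESeq2 265 in the DM22 libraries alone. With each library left out, the calls ran from 0 to 1 in limma and from 23 to 235 in DESeq2. Of the genes in the related lists, 0 were called by limma, 2 by DESeq2 with the replicate block, 2 with the code series and 3 in the DM22 libraries (Krt14, Krt15 and Trp73). The members without overlap between genotypes numbered 1, and 4 in the DM22 libraries alone, with 1 to 3 when a library was left out. Over all genes the share without overlap was 11.0%, 44.7% in the DM22 libraries and 13.9% to 27.7% with a library left out.

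Small genotype differences changed sign. In the DM22 libraries Grhl3 gave −0.063 with limma and −0.045 with DESeq2. With each library left out, the log2 difference ran from −0.086 to 0.29 for Trp63, from −0.089 to 0.25 for Tfap2c, from −0.71 to 1.17 for Grhl3, from −0.18 to 0.72 for Ovol1, from −0.30 to 0.67 for Zfp750 and from −0.055 to 0.30 for Hopx. Grhl1, Grhl2 and Tfap2a kept their sign in all 27. Along the code series DESeq2 called 2056 genes, and leaving out 1 library gave 39 to 1493 genes and 0 to 6 members. The cause was not tested, though fewer libraries enter those fits. Each member had at least 248 reads in each library.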
